A study of Mus musculus with 6 samples.

Results

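Vmn1r genes encode the V1R vomeronasal receptors, and the regions described here are those of a PHF13 ChIP-seq list whose nearest gene carries a name that starts with Vmn1r. There were 214 such regions among 39096 in the list, and they were nearest to 102 Vmn1r genes. PHF13, also called SPOC1, is a chromatin protein with a PHD finger that recognises methylated histone H3, and chromatin was taken from testis of C57Bl/6 mice aged 5 weeks. The series had 3 SPOC1 ChIP libraries, of which 1 was labelled wild type and 2 Phf13-/-, and 3 input libraries, of which 2 were labelled wild type and 1 Phf13-/-. Animal D707 was labelled wild type and E117 Phf13-/- in both libraries, whereas D821 was labelled wild type in its input and Phf13-/- in its ChIP. The list gave 1 value per region for the whole series, with no value per library, so the values below have no replicate error and genotypes were not compared. Whether a region marks PHF13 itself could not be tested, and the word region is used in place of binding site. The tissue could not be checked against marker genes, because a list of regions holds no expression.

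V1R receptors are G protein-coupled receptors of the sensory neurons in the apical layer of the vomeronasal organ, where they couple to the G protein subunit Gnai2 and the channel Trpc2. Each neuron is thought to express a single V1R allele. The genes arose by repeated local duplication, so they stand in clusters, many members are near-identical copies, and the clusters are rich in L1 elements, the main family of LINE retrotransposons in the mouse.

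The sequences just before 3 start sites on chromosome 7 show how alike Vmn1r copies can be. Of these, Vmn1r137 and Vmn1r138 had a region centred within 1 kb of the start. Vmn1r155 had one just past that limit, centred 1088 bp upstream with a score of 17.3 per kb, against 11.8 per kb for the region of Vmn1r137. Some other start sites, not printed here, had regions nearer still. Each is the 250 bases before the transcription start site (TSS), 5′ to 3′, from RefSeq on GRCm38.p6, the assembly that mm10 names, and capitals mark the bases inside a region of the list. Vmn1r137 lies at chr7:21994337-21994586 on the plus strand, Vmn1r155 at chr7:22657768-22658017 on the plus strand and Vmn1r138 at chr7:22028898-22029147 on the minus strand.
Vmn1r137: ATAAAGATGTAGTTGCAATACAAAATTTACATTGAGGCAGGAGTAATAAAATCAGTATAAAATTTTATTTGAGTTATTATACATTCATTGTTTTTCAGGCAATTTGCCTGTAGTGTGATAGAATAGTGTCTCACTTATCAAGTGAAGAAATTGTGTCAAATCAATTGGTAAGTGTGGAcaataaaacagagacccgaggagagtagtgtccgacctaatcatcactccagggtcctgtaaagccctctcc
Vmn1r155: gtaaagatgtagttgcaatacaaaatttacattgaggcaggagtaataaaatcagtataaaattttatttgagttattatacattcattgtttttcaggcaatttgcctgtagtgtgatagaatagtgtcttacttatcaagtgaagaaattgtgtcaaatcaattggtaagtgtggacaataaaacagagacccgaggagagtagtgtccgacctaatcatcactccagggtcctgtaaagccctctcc
Vmn1r138: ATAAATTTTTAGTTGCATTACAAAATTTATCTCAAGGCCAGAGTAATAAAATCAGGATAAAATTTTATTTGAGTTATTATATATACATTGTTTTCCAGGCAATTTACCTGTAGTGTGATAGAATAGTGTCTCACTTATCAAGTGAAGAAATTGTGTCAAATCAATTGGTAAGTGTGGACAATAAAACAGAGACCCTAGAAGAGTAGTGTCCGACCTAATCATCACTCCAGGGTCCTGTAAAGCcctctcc
A region covered 178 of these 250 bases at Vmn1r137, 243 at Vmn1r138 and 0 at Vmn1r155. Counted from 1 at the 5′ end, the sequences of Vmn1r137 and Vmn1r155 differed at 2 positions, A1G and C132T (the base of Vmn1r137 first). The sequence of Vmn1r107 was the same as that of Vmn1r155 over these bases, and those of Vmn1r111 and Vmn1r166 were the same as that of Vmn1r138. Near-identical sequences were thus covered to different extents. The part of read placement among copies in this was not tested.

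Most of the regions lay on chromosome 7, where many Vmn1r genes also stand. It held 131 of the 214 (61.2%), chromosome 6 held 36, chromosome 13 held 15, chromosome 18 held 10, chromosome 17 held 9, chromosome 4 held 6 and chromosome 1 held 1. The other 6 lay on an unplaced contig of chromosome 7. Of the 231 protein-coding Vmn1r genes of the reference, 86 stand on chromosome 7 from Vmn1r91 to Vmn1r183. Another 24 stand there from Vmn1r66 to Vmn1r-ps69 and 11 from Vmn1r55 to Vmn1r65. The share of regions per chromosome thus follows in part where the genes are. Of the 102 genes, 48 were nearest to 1 region and 33 to 2 regions, and the gene name with the most, Vmn1r238 on chromosome 18, was given to 10. It was followed by Vmn1r118 with 9, Vmn1r107 and Vmn1r186 with 8 each and Vmn1r155 with 7. These counts follow the names in the list: by position, 7 of the 9 regions named Vmn1r118, all 8 named Vmn1r107 and all 7 named Vmn1r155 lay at the starts of other Vmn1r genes. Vmn1r72, Vmn1r137 and Vmn1r193 had 5 each, and Vmn1r94, Vmn1r101, Vmn1r120 and Vmn1r168 had 4 each.

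By gene number, 116 of the 231 protein-coding Vmn1r genes of the reference were nearest to at least 1 region, or 50.2% (Wilson 95% interval 43.8 to 56.6%). Intervals on shares cover counting error only. Over all 21896 protein-coding genes the share was 23%. In the Vmn2r family, the V2R receptors of the basal vomeronasal neurons, it was 59.7% (50.9 to 67.9%), and in the Olfr family of odorant receptors it was 23.6% (21.2 to 26.2%). The Vmn1r share was thus above those of all genes and of Olfr, with intervals that did not overlap, and its interval overlapped that of Vmn2r. The count by gene number includes 14 genes that the list names by an older symbol. Gene numbers are those of the list and do not always match the gene at the start site.

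Vmn1r genes at most 1 Mb apart were joined into clusters, of which 15 held more than 1 gene. Together these 15 clusters spanned 13.5 Mb and held 269 regions of any nearest gene, or 19.9 per Mb (exact Poisson 95% interval 17.6 to 22.4, counting error only). The autosomes held 8.13 ± 1.14 regions per Mb (SD, n = 19 chromosomes). The cluster from Vmn1r91 to Vmn1r183 on chromosome 7 (20101158 to 24055691) held the largest number, 137 regions, or 34.6 per Mb (29.1 to 41.0), of which 84 were nearest to a gene named Vmn1r. The 1 Mb on each side of it held 4 per Mb. The cluster from Vmn1r55 to Vmn1r65 (5146490 to 6011010) held 25.4 per Mb (15.9 to 38.5), with 5.5 per Mb beside it. The cluster from Vmn1r66 to Vmn1r-ps69 (10273828 to 13244458) went the other way, with 12.8 per Mb (9.05 to 17.6) inside and 24 per Mb beside it. On chromosome 13 the cluster held 12.4 per Mb (6.93 to 20.4) with 3.5 per Mb beside it, and on chromosome 17 it held 7.49 per Mb (3.42 to 14.2) with 9.5 per Mb beside it. Short clusters on chromosome 18 (72.5 per Mb, 29.2 to 149) and chromosome 4 (36.8 per Mb, 7.58 to 107) were denser than any of these, on 7 and 3 regions. On chromosome 6 the cluster from Vmn1r4 to Vmn1r-ps23 held 12.02 per Mb (7.24 to 18.8), with 14.5 per Mb beside it. That from Vmn1r32 to Vmn1r39 held 19.8 per Mb (6.41 to 46.1), on 5 regions, with 14 per Mb beside it. That from Vmn1r-ps25 to Vmn1r54 held 17.5 per Mb (8.39 to 32.2), on 10 regions, with 1.5 per Mb beside it. High density was therefore a property of some Vmn1r clusters and not of every one.

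**Figure D1:**
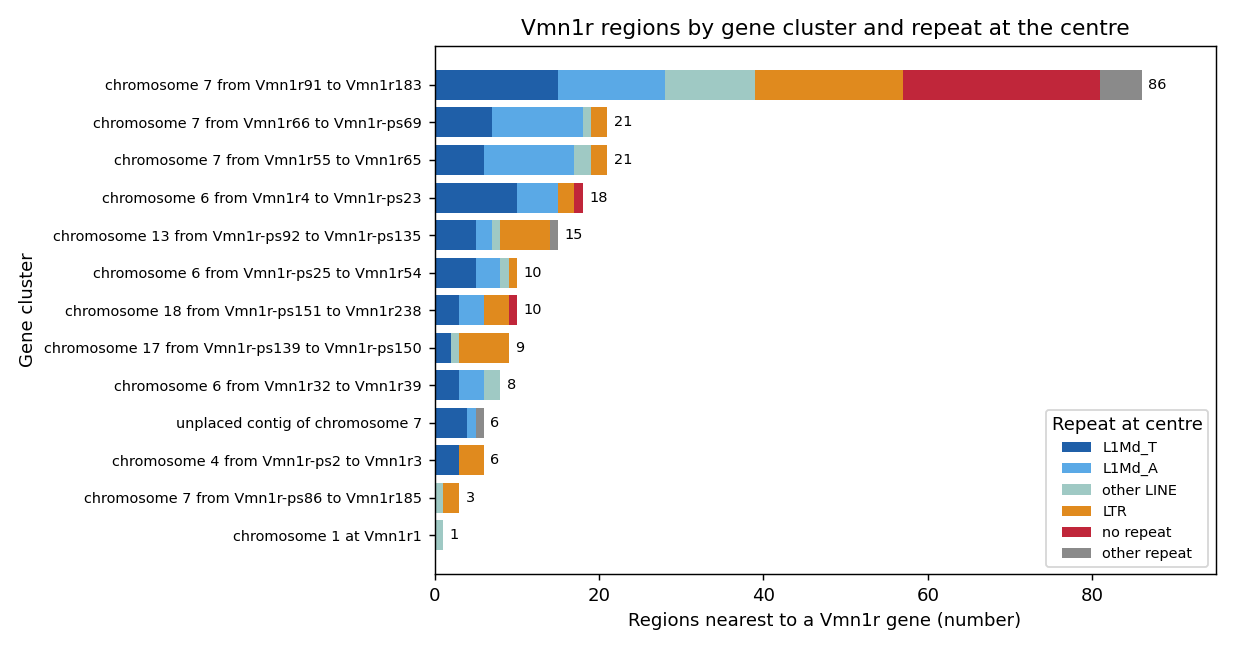
Number of regions nearest to a Vmn1r gene in each gene cluster (bars), split by the repeat at the region's centre (colours). The cluster from Vmn1r91 to Vmn1r183 holds 86 regions and 24 of the 26 that have no repeat at the centre.

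Nearly all of the regions lay between genes: 207 of 214 (96.7%) were annotated as intergenic, 3 as intronic, 3 as promoter and 1 at a transcription end. At their centres, 136 (63.6%, 56.9 to 69.7%) had a LINE, 45 (21.0%, 16.1 to 27.0%) an LTR retrotransposon and 26 (12.1%, 8.43 to 17.2%) no repeat. The young L1 subfamilies L1Md_T and L1Md_A gave 63 and 52 of the LINE regions. Among the LTR regions, 14 were in IAPEz-int, the internal part of intracisternal A particles, and 8 in MERVL-int, that of an endogenous retrovirus. In the 19611 autosomal regions nearest to other genes, LINEs took 72.7% (72.1 to 73.3%) and 2.89% (2.67 to 3.13%) had no repeat. The Vmn1r regions thus had a lower LINE share and a higher share without a repeat, with intervals that did not overlap. The share without a repeat was 18.4% (14.1 to 23.6%) near Vmn2r genes and 2.96% (1.74 to 5.00%) near Olfr genes.

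That difference lay in 1 cluster. In the cluster from Vmn1r91 to Vmn1r183, LINEs took 45.3% of 86 regions (35.3 to 55.8%) and 24 regions, or 27.9% (19.5 to 38.2%), had no repeat. In the other 128 regions LINEs took 75.8% (67.7 to 82.4%) and 2 regions, or 1.56% (0.43 to 5.52%), had none. These other regions were close to the autosomal shares, and their intervals held both. On chromosome 6, all 8 regions from Vmn1r32 to Vmn1r39 and 9 of 10 from Vmn1r-ps25 to Vmn1r54 were in LINEs. LTRs took 6 of 9 regions on chromosome 17 and 6 of 15 on chromosome 13, beside 17.8% (17.3 to 18.4%) of autosomal regions near other genes. These counts are small, and Vmn1r237, Vmn1r193 and Vmn1r206 each gave 2 neighbouring LTR regions with 1 repeat name.

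Most of the regions were short. Lengths had a median of 628 bp, with quartiles of 500 and 1025 bp, and 97 regions had a length of exactly 500 bp. The score given by the authors, whose unit is not stated, had a median of 16.8 and ran from 5.10 to 200.3. Because score grows with length, it was also divided by length, which gave a median of 27.4 per kb (quartiles 18.7 and 32.2), against 28.7 in autosomal regions near other genes, 25.4 near Vmn2r genes and 28.3 near Olfr genes. In the cluster from Vmn1r91 to Vmn1r183 the median score per kb was 17.1 and the median length 500 bp, and elsewhere 29.7 per kb and 746.5 bp.

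In LINEs the median score per kb of all Vmn1r regions was near that of other autosomal regions. It was 30.2 in L1Md_T (29.5 in other autosomal regions), 29.6 in L1Md_A (29.0) and 25.8 in other LINEs (26.4). In the cluster from Vmn1r91 to Vmn1r183 it was 30.9 in L1Md_T, 25.4 in L1Md_A and 21.3 in other LINEs. LTR regions had a median of 24.8 per kb against 30.7, and this too differed between clusters, with 19.1 in the cluster from Vmn1r91 to Vmn1r183 and 31.2 elsewhere. Regions without a repeat and those in other repeats were low in both sets, with medians of 11.04 and 10.6 per kb near Vmn1r genes and 13.6 and 12.7 near others. No single score per kb in a Vmn1r region without a repeat exceeded 17.3, while the lower quartile of its L1Md_T regions was 27.2.

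**Figure D2:**
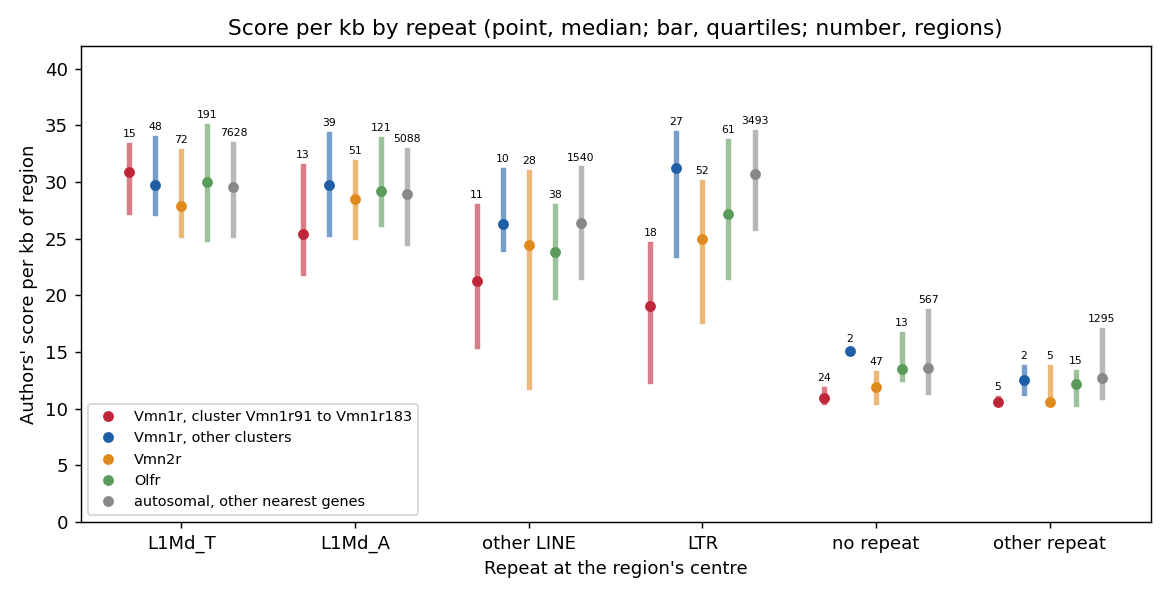
Authors' score per kb of region by repeat at the centre (point, median; bar, quartiles; number above, regions) for Vmn1r regions inside and outside the cluster from Vmn1r91 to Vmn1r183, for Vmn2r, for Olfr and for autosomal regions near other genes. The L1Md_T medians lie between 27.9 and 30.9 in all of these sets, and the medians without a repeat between 10.98 and 15.1.

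Distances to the nearest TSS were short, but the regions were taken by nearest gene and these genes stand close together. From Vmn1r91 to Vmn1r183 there are 86 protein-coding Vmn1r genes in 3.96 Mb, which limits how far any position can lie from a start. Whether the regions lie closer to a TSS than other positions of the same clusters was not tested. The median distance was 16.0 kb (quartiles 8.97 and 29.5 kb), against 112 kb in autosomal regions near other genes, 32.9 kb near Vmn2r genes and 12.1 kb near Olfr genes. Of all Vmn1r regions, 114 (53.3%, 46.6 to 59.8%) lay upstream. The share was 66.3% (55.8 to 75.4%) in the cluster from Vmn1r91 to Vmn1r183 and 44.5% (36.2 to 53.2%) elsewhere. Close to the TSS most were upstream: within 1 kb all 3 regions were upstream, and from 1 to 5 kb 20 of 26 were. This was so only in the cluster from Vmn1r91 to Vmn1r183, where 23 of 25 regions within 5 kb were upstream. The 4 elsewhere all lay downstream, at 2371 to 3923 bp. Of all 29 regions within 5 kb, 23 had no repeat, whereas from 5 to 20 kb 2 of 106 had none.

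Promoter-proximal regions were few and lay in the cluster from Vmn1r91 to Vmn1r183. By gene number, 6 of 231 Vmn1r genes (2.60%, 1.20 to 5.55%) had a region within 1 kb of the TSS, beside 0.237% of all protein-coding genes, 0 of 124 Vmn2r genes and 4 of 1110 Olfr genes. Under the names in the list they were 3 genes. Both counts follow the list and not the gene at the start site. The region named Vmn1r166 was the nearest under a Vmn1r name, with its centre 258 bp upstream and a score of 5.31 (10.6 per kb). The region named Vmn1r155 was 604 bp upstream, 1062 bp long and had a score of 12.5 (11.8 per kb). The region named Vmn1r107 was 987 bp upstream with a score of 8.07 (16.1 per kb). Just outside the limit, the region named Vmn1r137, which lay at the start of Vmn1r155, was 1088 bp upstream with a score of 10.8 (17.3 per kb). None of the 4 had a repeat at its centre. Another 4 regions within 1 kb belonged to genes that the list names Gm16451, Gm6164, Gm8653 and Gm8693 and for which it gives a V1R alias. Those of Gm16451 and Gm6164 were nearer still, at signed distances of -178 and -232 bp. At a limit of 5 kb, 29 of 231 Vmn1r genes (12.6%, 8.88 to 17.5%) had a region, beside 1.82% of all protein-coding genes, 14 of 124 Vmn2r genes and 50 of 1110 Olfr genes.

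Most of the regions without a repeat stood at 1 distance. Between 2.0 and 2.7 kb upstream of the TSS there were 16 regions at 16 start sites, all in the cluster from Vmn1r91 to Vmn1r183, and 15 of them had no repeat. This window was chosen after the distances had been seen, so its count is a description. By gene number, 17 of 231 Vmn1r genes (7.36%, 4.64 to 11.5%) had a region there, beside 0.288% of all protein-coding genes, 1 of 124 Vmn2r genes and 5 of 1110 Olfr genes. Gene numbers follow the list, so start sites that share a name count as 1 gene. In the same window downstream there was 1 Vmn1r region and, near Vmn2r genes, 6. Another 5 regions in the upstream window belonged to genes with a V1R alias under other names, and all 5 had no repeat. Of the 34 regions that other autosomal genes had in it, 4 had no repeat.

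The 15 regions of this window without a repeat had centres 2059 to 2698 bp upstream, a range that the choice of the window limits, with a median of 2297 bp. Their lengths were 500 to 975 bp, their scores 5.31 to 12.1 and their scores per kb 9.92 to 12.6. The 11 Vmn1r regions without a repeat outside the window had 10.2 to 17.3 per kb. The highest score belonged to the region at the start of Vmn1r137, 2372 bp upstream. The regions at the starts of Vmn1r165, Vmn1r130, Vmn1r107 and Vmn1r155 lay 2379, 2409, 2410 and 2297 bp upstream, with scores of 10.8, 9.98, 9.34 and 7.22. At the starts of Vmn1r142, Vmn1r127, Vmn1r120 and Vmn1r115 the distances were 2313, 2322, 2285 and 2237 bp and the scores 6.80, 6.37, 6.37 and 5.73. The exception was the region at the start of Vmn1r149, which lay 2150 bp upstream in an RLTR10 element with 21.2 per kb.

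**Figure D3:**
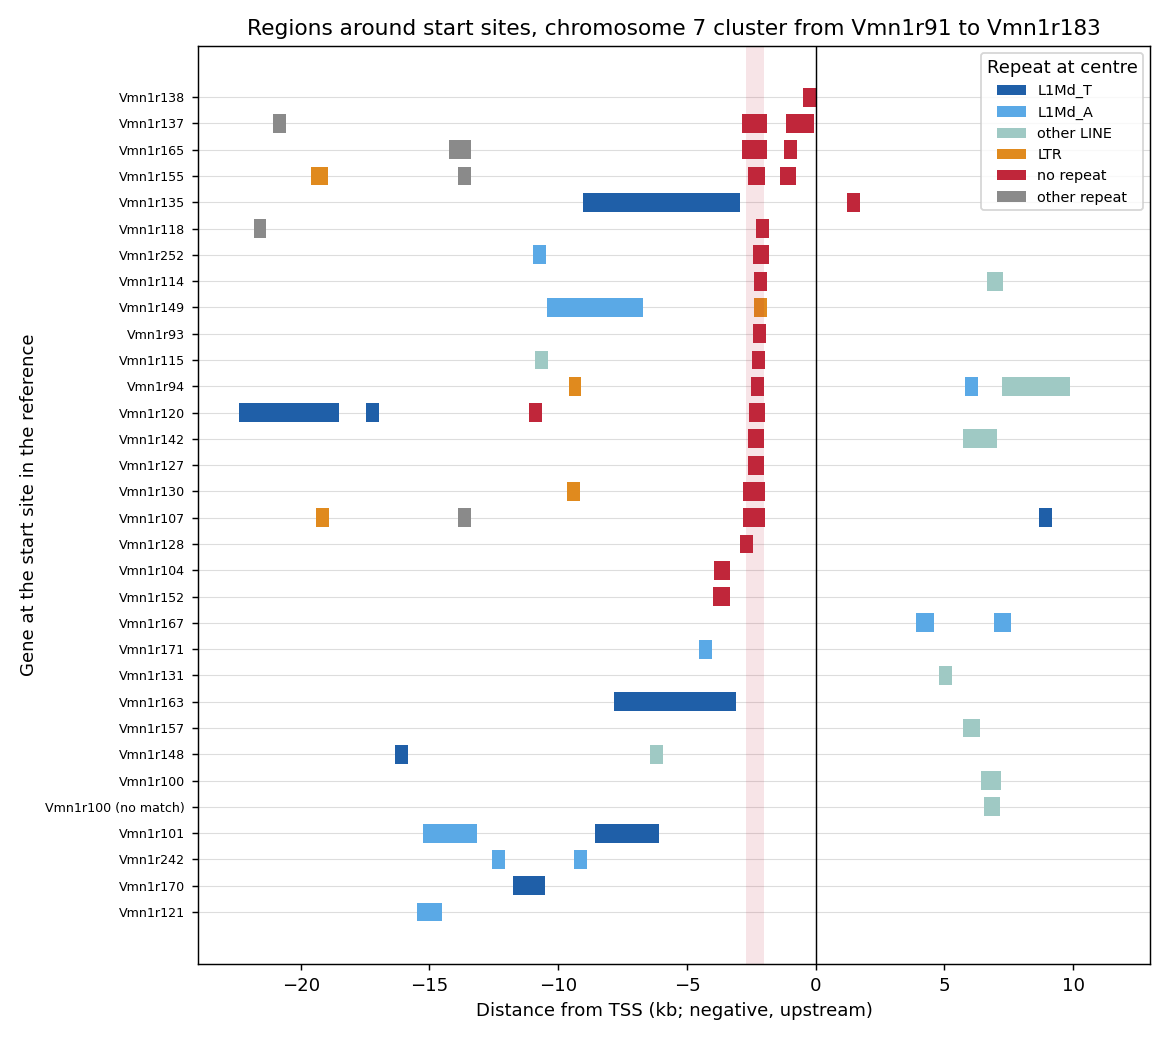
Regions (bars, to scale) around start sites of the cluster from Vmn1r91 to Vmn1r183, by distance from the TSS in kb and coloured by the repeat at the centre; the shaded window is 2.0 to 2.7 kb upstream. The window holds 16 regions at 16 start sites, and 15 of them have no repeat.

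**Figure D4:**
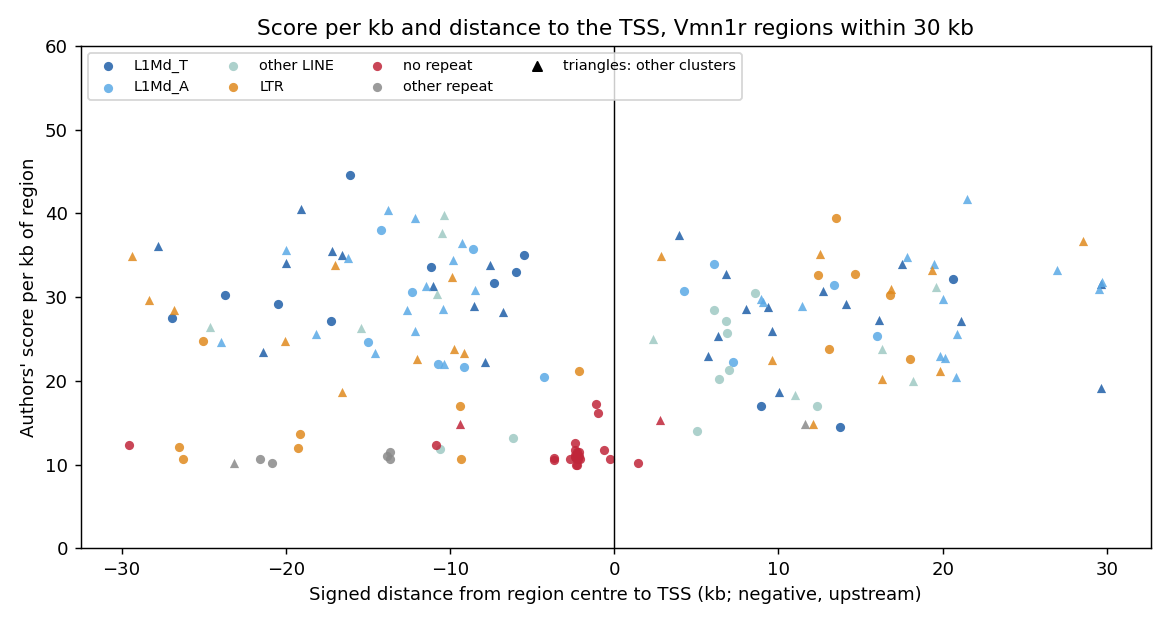
Authors' score per kb against signed distance to the TSS in kb for Vmn1r regions within 30 kb, coloured by the repeat at the centre (circles, the cluster from Vmn1r91 to Vmn1r183; triangles, other clusters). Regions without a repeat lie at or below 17.3 per kb, and 15 of the 26 fall 2.0 to 2.7 kb upstream.

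In this cluster the gene name in the list did not always name the gene at that position. The start site implied by a region's centre and distance was compared with gene starts of the reference. It fell at the named gene for 164 regions, at another gene for 37 and at no gene start for 7, and 6 regions lay on the contig. All 37 were in the cluster from Vmn1r91 to Vmn1r183, under 12 gene names. The region named Vmn1r163 (21823334 to 21829398, L1Md_T) lay 5985 bp upstream of the start of Vmn1r135, and had the highest score of all, 200.3, over 6064 bp. The one named Vmn1r135 (23047718 to 23052430, L1Md_T) lay 5466 bp upstream of the start of Vmn1r163, with a score of 165.0 over 4712 bp. The 300 bases of promoter sequence given for Vmn1r135 and Vmn1r163 were 100% identical. Regions named Vmn1r155 lay at the starts of Vmn1r137 and Vmn1r107, and those named Vmn1r137 lay at the starts of Vmn1r155 and Vmn1r107. The region named Vmn1r166 was at the start of Vmn1r138, whose promoter sequence was also identical to that of Vmn1r166. Why names and positions differ was not tested. Of the 86 regions of the cluster, 47 lay at the named gene. By the gene at the start site, regions were nearest to 103 genes, against 102 by name.

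Some copies in the cluster shared more than the window at 2.0 to 2.7 kb. At the start of Vmn1r107, regions lay 19160 bp upstream in the LTR RLTR22_Mus, 13634 bp upstream in the DNA transposon URR1A and 2410 bp upstream without a repeat. At the start of Vmn1r155 the same elements lay 19285 and 13623 bp upstream, followed by the region at 2297 bp. At the start of Vmn1r137 they lay 26527 and 20822 bp upstream, farther out, with the region at 2372 bp. All 3 URR1A regions of the Vmn1r set were these, with 10.2 to 11.5 per kb. Other close copies had other repeats at the centres of their regions. The starts of Vmn1r130 and Vmn1r165 had regions without a repeat 2409 and 2379 bp upstream, but none centred in RLTR22_Mus or URR1A. Farther out, Vmn1r130 had an IAPEz-int region 9407 bp upstream, and Vmn1r165 a region centred in a B3 element 13822 bp upstream. The latter was 851 bp long with 10.98 per kb, and in distance from the TSS it overlapped the URR1A regions of Vmn1r107 and Vmn1r155. Only the repeat at the centre is given, so whether it also holds URR1A was not tested. Regions in L1Md_F3 lay 6820 bp downstream of Vmn1r100, 6966 bp downstream of Vmn1r114 and 6052 bp downstream of Vmn1r157. Another, also named Vmn1r100 and listed at 6837 bp downstream, matched no gene start of the reference. The regions named Vmn1r104 lay 3646 bp upstream of Vmn1r104 and 3660 bp upstream of Vmn1r152, without a repeat and with scores of 6.80 and 6.58. Vmn1r168 differed from these in that its 4 regions lay in IAPEz-int, 12400 to 16807 bp downstream, with 30.2 to 39.4 per kb. The highest score per kb of the cluster, 44.6, was that of an L1Md_T region 16088 bp upstream of Vmn1r148.

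The promoter sequences of this cluster stood apart from those of other Vmn1r genes in similarity. RefSeq promoter entries of 300 bases (250 before and 50 after the TSS) matched 206 Vmn1r genes. The most similar other Vmn1r entry was 100% identical in the median over the 83 genes of this cluster and 74.8% in the 123 others. At least 95% identity was reached by 73 of the 83 and by 10 of the 123. Of the 16 start sites with a region 2.0 to 2.7 kb upstream, 15 had an entry. Each of the 15 had another entry at least 99.3% identical. The other 68 genes of the cluster were much alike too, with a median of 100% and 58 at 95% or more. The entries were poor in CpG, with a median of 1 per entry in Vmn1r genes, 2 in this cluster and 3 at those 15 start sites. Over 17491 protein-coding genes the median was 13. The median GC content of the Vmn1r entries was 36.0% against 56.3%. The motif CCCNNGGG, the core of the site of the EBF factors of olfactory and vomeronasal neurons, was in 1 of 206 (0.485%, against 15.3% of all entries). TATAAA, searched on both strands, was in 42.2% (against 13.3%). CCCNNGGG reads the same on both strands and the motifs do not overlap in letters. A match is a description of the letters and not a bound site. The shares were not compared at matched GC content, so whether composition alone gives these differences was not tested. Of the 206 entries, 54 were identical to another, so they are not separate observations.

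**Figure D5:**
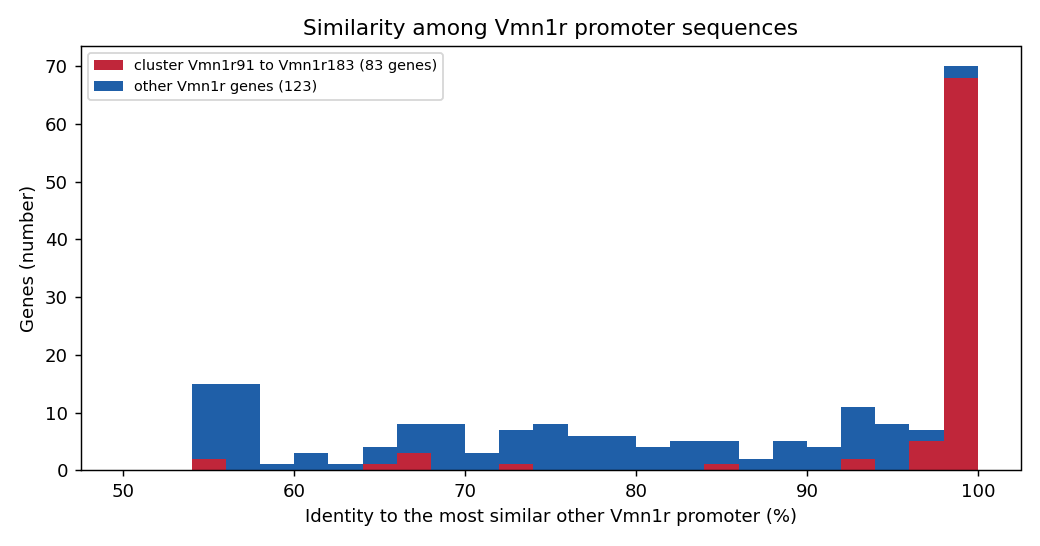
Histogram of the identity (%) of each of 206 Vmn1r promoter entries to its most similar other Vmn1r entry, stacked by cluster. The cluster from Vmn1r91 to Vmn1r183 (83 genes) is gathered at the right, with 73 genes at 95% or more, and the 123 other genes are spread from 54.4% upward.

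Outside that cluster the regions followed L1 and LTR elements at varied distances. Vmn1r238, the protein-coding gene of its chromosome 18 cluster, had 10 regions from 18131 bp upstream to 118949 bp downstream, 3 of them in L1Md_T and 3 in L1Md_A. The farthest, in RLTR31D_MM, had the highest score per kb of all Vmn1r regions, 90.8, with a score of 45.4 over 500 bp. Without it the gene's highest was 43.8 per kb. On chromosome 4, 3 regions in MERVL-int and MT2_Mm lay 189 to 194 kb upstream of Vmn1r3 and were the farthest from a TSS, and Vmn1r2 had 3 in L1Md_T, 57.8 to 61.8 kb upstream with scores of 14.0 to 67.3.

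On chromosome 13, the 5 regions of Vmn1r193 lay 12028 and 9886 bp upstream in IAPEz-int and 9578, 12701 and 14123 bp downstream in L1Md_T. The highest score there, 147.0, was that of an L1Md_A region of 5155 bp, 10406 bp upstream of Vmn1r204, and the highest score per kb, 36.4, that of an L1Md_A region 9245 bp upstream of Vmn1r205. On chromosome 17, Vmn1r237 had IAPEz-int regions 28543 and 31230 bp downstream with 36.7 and 31.2 per kb, and the L1Md_T region 27773 bp upstream of Vmn1r224 had the highest score, 38.9.

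On chromosome 6, the highest score of each of the 3 clusters with Vmn1r regions was that of an L1Md_T region: 93.7 at 37481 bp downstream of Vmn1r27, 100 at 17188 bp upstream of Vmn1r39 and 61.2 at 3923 bp downstream of Vmn1r48. Per kb, the highest of the cluster of Vmn1r53 was 39.8, in L1Md_F, 10352 bp upstream of that gene, and Vmn1r29 had 37.0 in L1Md_A. On chromosome 7, Vmn1r60 had 3 L1Md_A regions 9793 to 13750 bp upstream with up to 40.4 per kb, and Vmn1r59 a score of 118.3 in L1Md_A. Vmn1r84 had 111.3 in L1Md_T, 19994 bp upstream. The 5 regions of Vmn1r72 lay 10983 to 91833 bp downstream, all in L1 elements, with up to 41.7 per kb.

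Repeat names were compared between neighbouring regions. Of the 214 regions, 140 had another Vmn1r region within 10 kb, and of 80 such neighbouring pairs 45 carried the same repeat name. The same counts were not made for other regions of the list, so these have no share beside them. Whether the regions of a pair lie in 1 element was not tested.

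Vmn1r186 appeared both on chromosome 7 and on the unplaced contig, with 4 L1Md_T regions at each. On chromosome 7 they lay 31282, 43038, 45233 and 46501 bp downstream, and on the contig 29639, 33668, 42888 and 46487 bp downstream. A pair of them was alike in distance and length: 43038 bp with a length of 2719 bp and 39.1 per kb on chromosome 7, beside 42888 bp with 2706 bp and 30.04 per kb on the contig. The reference places Vmn1r186 by contig coordinates, so its chromosome 7 regions matched no gene start.

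Other genes of the vomeronasal system were listed by role. Of the ligand genes, 14 of 22 Mup genes (major urinary proteins) were nearest to 34 regions and 10 of 15 Esp genes (exocrine gland-secreting peptides) to 27. Of the other receptors, 74 of 124 Vmn2r genes and 1 of 5 formyl peptide receptor genes had a region, the latter Fpr-rs3 with an L1Md_T region 4.17 kb upstream. Among 8 signalling genes, Ano1 and Ano2, which encode calcium-activated chloride channels, had 1 and 2 regions, and Trpc2, Gnai2, Gnao1, Gng8, Plcb2 and Adcy3 had 0. The H2-M genes, class I molecules made by vomeronasal neurons, had 14 regions at 6 of 9 genes. None of these 6 lists had a region within 1 kb of a TSS. Over all protein-coding genes that share was 0.237%, so lists of 5 to 124 genes could each hold none at the same share. At least 1 region was nearest to 23% of all protein-coding genes, the share to set beside each count of genes above. The signalling genes with a region numbered 2 of 8.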

How the data were processed

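Sequencing of SPOC1 ChIP and input from testis gave 6 libraries. The submitters' processing notes name Bowtie2 2.2.2, SAMtools, HOMER 4.6 and the build mm10, with no roles stated. Per the file headers, the deposited list is HOMER's annotation of regions against mm10, with the nearest gene, the signed distance to its TSS and the annotation at the region's centre. Which libraries were pooled, the control and the peak settings were not given in the sources used here. For each region the authors' score is used as deposited and its unit is not stated; it describes and ranks regions within this list only. Depth per library is unknown.

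Regions were taken by gene name, and length was end minus start. Gene positions and promoter sequences came from RefSeq tables of GRCm38.p6; all 102 named genes matched by gene number. Genes on chromosomes with a start below 3000000 bp were treated as having contig coordinates. Clusters joined Vmn1r genes at most 1 Mb apart. A start site was matched to a gene start within 500 bp. Promoter identity is the identity of a global alignment (Biopython 1.88), using 1 entry per gene. Shares have Wilson intervals, densities exact Poisson intervals and medians order-statistic intervals, all 95%, for counting error only. No test was run, since no replicates are given and regions are not replicates. The functions that match start sites, join clusters and align sequences were tested on simulated data. The software was NumPy 2.4.6, pandas 2.3.3, matplotlib 3.10.9 and SciPy 1.17.1 under Python 3.11.15. The regions, gene lists and measures were chosen with earlier results of these data known.

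The genes named are the 15 nearest to the most regions, those with a region within 1 kb, those with the highest score and score per kb in each cluster of 5 or more regions, and those of the nearest and farthest region; others were named after their values were seen. Alternatives changed the score limit, gene names, distance limits and cluster gap, and left out the largest cluster. A list of marker and transcription factor genes is not reported here.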

Additional observations from a re-analysis of the deposited data

How the results depend on the processing

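Of 56 values recomputed under other settings, 31 stayed within 1.5 times the count or within the 95% interval of the reported value and 25 did not. With synonyms added, only the count of genes within 1 kb did not, as 3 became 6. With the limit of 100 kb, or without the unplaced contig (chosen after seeing the data), all stayed.

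Kept to the 50% of the list with the higher score, there were 97 regions and 62 genes, with a LINE share of 82.5%, 0% without a repeat, 31.3 per kb, a median length of 1074 bp, 0 genes within 1 kb and 7.92 regions per Mb in the clusters. With the higher score per kb, the LINE share was 78.6%, 0% had no repeat, and the medians were 30.2 per kb and 677 bp. Without the largest cluster, 128 regions remained, with 75.8% in LINEs, 1.56% without a repeat, 29.7 per kb, 746.5 bp and a median distance of 19838 bp. A window of 500 bp left 1 gene and one of 5 kb gave 21. Clusters joined at 2 Mb held 17.2 regions per Mb. Of the 16 regions 2.0 to 2.7 kb upstream, 0 were left by the limit on score, 1 by the limit on score per kb and 0 by leaving out the largest cluster; these settings were chosen after seeing the data. Regions without a repeat thus rest on low scores, and how far they exceed background could not be judged without depth per library. No paired analysis was possible because libraries have no columns of their own.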
